A study of Mus musculus with 6 samples.

Results

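The genes described here are the 10 members of 4 mouse families that release calcium from the endoplasmic reticulum (ER) and let it be refilled: the IP3 receptors Itpr1, Itpr2 and Itpr3, the SERCA pumps Atp2a2 and Atp2a3, the store sensors Stim1 and Stim2, and the channel subunits Orai1, Orai2 and Orai3. The rule names the genes and uses no measured value, although earlier results of these data were known when it was written, and all 10 were found among the 56953 genes of the table through their Ensembl identifiers. The 6 libraries were made from cultured mouse embryonic fibroblasts (MEFs), cells of connective tissue taken from embryos, in medium with 10% serum. Of these, 3 carried the label WT and 3 the label GαqKO, whose cells the study describes as lacking both Gαq and Gα11. Neither label gives a treatment or a time, and whether each genotype was 1 line or several is not given in the sources used here. The series names 3 biological replicates per genotype without saying what was repeated, so p-values measure the spread between these samples. The comparison asks how the RNA of these genes differed between MEFs of the 2 genotypes.

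Gαq and Gα11 are the G protein subunits through which many receptors activate phospholipase C beta, and the IP3 that this enzyme makes opens IP3 receptors in the ER membrane, so that stored calcium reaches the cytosol. SERCA pumps return calcium to the ER at the cost of ATP. When the store runs low, STIM proteins in the ER membrane sense it and open ORAI channels in the plasma membrane, a route called store-operated calcium entry.

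The values are normalized counts, which are the reads assigned to a gene divided by 1 size factor per library. Reads were recovered for 5 libraries, which held between 9853000 and 12229175 reads on genes. GαqKO replicate 3 was set aside before this step, so whether its reads can be recovered is not reported here. Differences were tested with limma on log2(normalized count + 1) over the 14096 genes that reached 10 normalized counts in 3 or more libraries, and a gene was called higher or lower at a Benjamini-Hochberg adjusted p under 0.05. Gnaq, the gene of Gαq, averaged 1691 normalized counts in WT (SD 48.5, n = 3) and 1926 in GαqKO (SD 36.0, n = 3). Its RNA was thus not lower under the GαqKO label, and it was called higher (log2 fold change 0.188, adjusted p = 0.00212 from limma). Gna11, the gene of Gα11, had 2148 ± 29.0 and 451.6 ± 28.7 (SD, n = 3 each) and was called lower (log2 fold change -2.25, adjusted p = 9.16e-13 from limma). For its GαqKO MEFs the study reports a lack of Gαq protein by Western blot and immunofluorescence, which is a different measure from RNA. Whether the reads of Gnaq come from a disrupted gene cannot be read from a total per gene, and the second group is named below by its label. The markers of the labelled cell type were uneven: Vim and Col1a2, a fibroblast filament and a collagen gene, were abundant in all 6 libraries, while Thy1, a surface marker of fibroblasts, had 0.0 to 2.1 normalized counts in the WT libraries and 59.0 to 76.5 in the GαqKO libraries. Pdgfra, a growth factor receptor gene of fibroblasts, had 17.5 to 21.9 and 2274 to 2356, and Dcn, the gene of the matrix proteoglycan decorin, 30.1 to 35.5 and 1604 to 1710. These 3 markers were picked after their values had been seen. The study names the same provider for the WT and GαqKO MEFs. Whether they share embryos, strain or line history is not given in the sources used here. In every comparison below, genotype and origin of the cells therefore cannot be told apart. Over the list of 10 fibroblast markers, 5 were higher and 5 lower, and their sum was 84400 to 90170 in WT and 62930 to 66200 in GαqKO. The summed markers of epithelial cells went from 515.1 to 540.8 in WT to between 10.0 and 23.2 in GαqKO, those of striated muscle from 752.9 to 823.5 to between 102.7 and 119.1, and those of nerve and glia from 436.6 to 511.7 to between 120.7 and 142.7. In WT most of these sums came from Krt14 and Cdh1, from Tnnt2 and from Tubb3. The sums of the blood cell list (111.7 to 127.2 and 74.2 to 113.4) and the endothelial list (14.5 to 29.2 and 21.6 to 40.6) overlapped between the groups. The part of these marker differences in the results below was not tested, and fewer cells of a type and less RNA per cell cannot be told apart in bulk libraries.

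Of the 10 genes, 9 passed the filter and 1, Atp2a3, did not. Among the 9, Itpr1, Itpr2, Stim2 and Orai3 were higher in the GαqKO libraries, Itpr3, Orai1 and Orai2 were lower, and Atp2a2 and Stim1 did not pass the threshold. These 7 calls among 9 stand beside 65.8% of all genes tested, with 31.8% of all genes called higher and 34.1% lower. Only Itpr2 also passed a log2 fold change of 1, which 20.7% of all genes tested did in either direction, 10.2% upward and 10.5% downward. In 8 of the 9 genes the 3 libraries of each group did not overlap, 4 with GαqKO above WT and 4 below it. This was so in 69.6% of all genes tested, 33.8% above and 35.8% below. The median log2 fold change was 0.06 over the 9 genes and -0.01 over all genes tested. Each family with more than 1 tested member therefore held genes called in opposite directions or a called and an uncalled gene. The 4 higher calls were made under all 16 alternative settings, while the number of lower calls ranged from 1 to 4. It was 1, Orai2 alone, without GαqKO replicate 1, without GαqKO replicate 2 and with DESeq2 on 5 libraries.

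**Figure D1:**
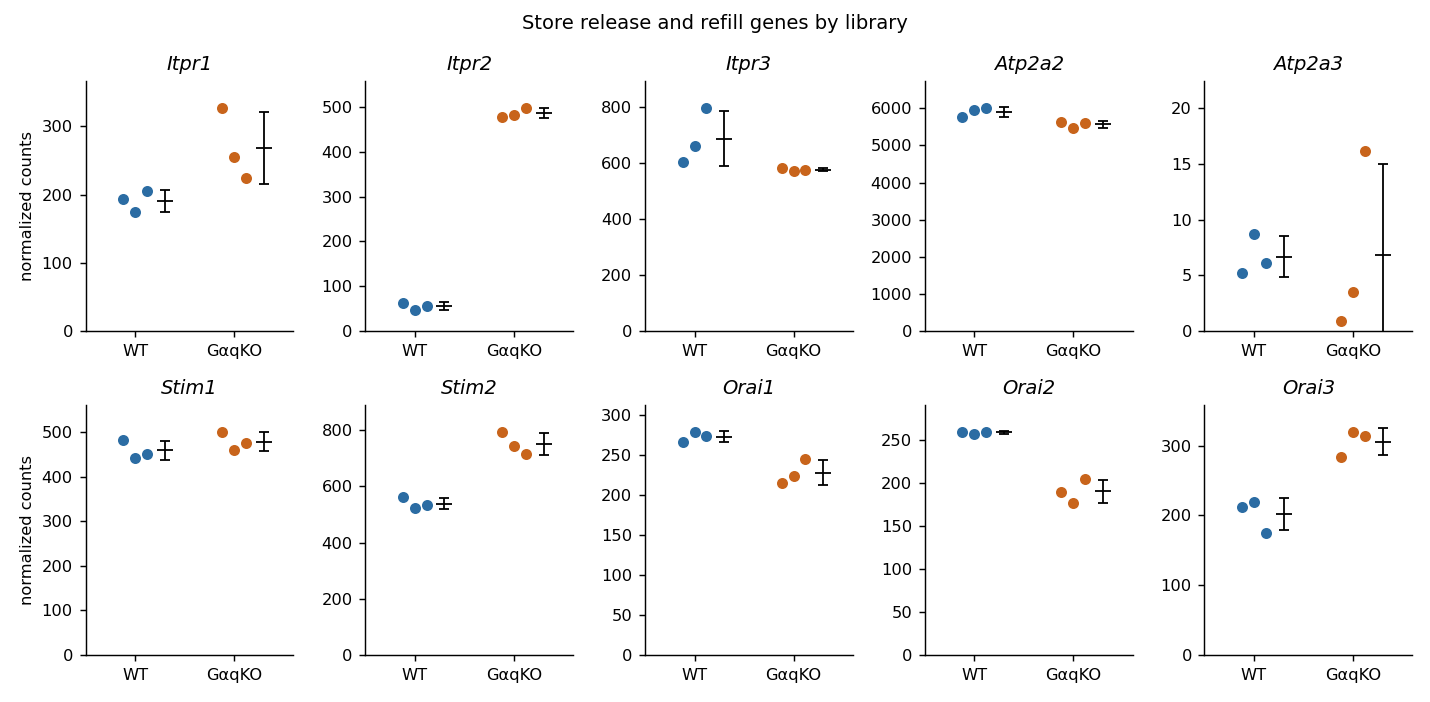
Normalized counts (vertical axes, each starting at 0) of the 10 genes in the 3 WT and 3 GαqKO libraries; each point is a library and the bar beside the points is the mean with its SD, which for Atp2a3 reaches below the axis. Itpr2 stood at 46.6 to 63.7 in WT and 477.0 to 497.5 in GαqKO, and the other genes differed far less.

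**Figure D2:**
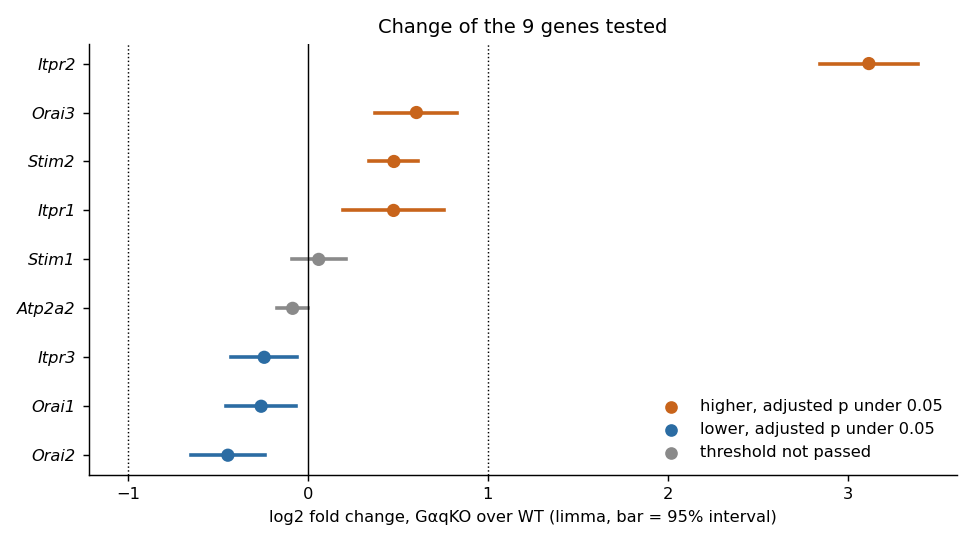
Log2 fold changes of GαqKO over WT (horizontal axis, limma) for the 9 genes tested, with 95% intervals as bars and dotted lines at -1 and 1. The interval of Itpr2 ran from 2.84 to 3.39, and every other interval lay between -1 and 1.

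Promoter sequence is shown for the genes with the largest fitted changes, Itpr2 and Orai3, because both rose and their promoters differ in base composition. Each is the 250 bases before the RefSeq start in GRCm39, read 5′ to 3′ on the strand of the gene. The Itpr2 window is chr6:146403722-146403971 on the minus strand and the Orai3 window is chr7:127368737-127368986 on the plus strand. Capitals mark GC boxes, GGGCGG on either strand, the motif bound by Sp family factors.
Itpr2: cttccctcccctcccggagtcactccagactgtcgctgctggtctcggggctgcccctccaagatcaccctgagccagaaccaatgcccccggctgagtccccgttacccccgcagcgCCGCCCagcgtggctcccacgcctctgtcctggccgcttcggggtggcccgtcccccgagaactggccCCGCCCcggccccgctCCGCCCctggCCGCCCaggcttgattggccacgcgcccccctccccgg
Orai3: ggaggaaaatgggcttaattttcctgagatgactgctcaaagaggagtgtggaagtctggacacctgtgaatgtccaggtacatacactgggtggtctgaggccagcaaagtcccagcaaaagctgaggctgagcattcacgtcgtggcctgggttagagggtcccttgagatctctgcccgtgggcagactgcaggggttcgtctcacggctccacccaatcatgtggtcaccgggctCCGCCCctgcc

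The Itpr2 window held 4 GC boxes, 22 CpG dinucleotides and 74.4% G and C, and the Orai3 window held 1 GC box, 7 CpG dinucleotides and 57.2%. Over all 32851 RefSeq windows of this length, not tested genes alone, the median was 6 CpG dinucleotides and 52.4% G and C. Orai3 lay near that middle and Itpr2 far above it. Itpr2 was not unusual among the members. The windows of Itpr3, Atp2a3, Stim1, Stim2, Orai1 and Orai2 held 63.6 to 78.4% G and C and 17 to 31 CpG dinucleotides. Orai3 had the lowest values of the windows found. RefSeq gave windows for 8 of the 10 genes, all but Itpr1 and Atp2a2. The RefSeq start of Itpr2 is also its GENCODE start, while the other starts lie inside the GENCODE gene, by 5 bases for Atp2a3 and Orai3, 47 for Stim1, 87 for Stim2, 94 for Orai1, 307 for Itpr3 and 534 for Orai2. The windows of Itpr3 and Orai2 therefore lie wholly inside the annotated gene and not before it. All 8 held a GC box, as did 57.2% of the 12602 windows of tested genes and 32.7% of all windows. Of the genes called higher, Itpr2 had 4, Stim2 3 and Orai3 1. Of those called lower, Orai1 had 3 and Itpr3 and Orai2 1 each. Stim1, which was not called, had the most with 8, and Atp2a3, which was not tested, had 5. Whether these motifs have a part in the changes was not tested. An E-box (CACGTG) was found in Itpr3, with 1 match, and in Orai2, with 2, against 8.21% of the windows of tested genes. These matches thus lie inside the annotated gene, and the other windows held no E-box. The core bound by NFAT factors (GGAAA, either strand) was found in Orai2 and Orai3, which were called in opposite directions, and in 53.6% of the windows of tested genes. None of the 8 windows held the letters TGACGTCA, TGANTCA or TATAAA, which 2.51%, 4.64% and 6.48% of those windows did. A match is a description of letters and not of binding.

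Itpr2, which encodes the type 2 IP3 receptor, was the gene that moved most. It lies on the minus strand of chr6:146009797-146403721 (GRCm39), and no exonic base of it lies inside the span of another gene in the table. The WT libraries had 63.7, 46.6 and 56.0 normalized counts of Itpr2 and the GαqKO libraries 477.0, 481.0 and 497.5. Every GαqKO library was far above every WT library, and the coefficient of variation among the 3 GαqKO libraries was 2.24%. The counts behind the WT values were 61, 48 and 55 recovered reads. The means of Itpr2 differed 8.75-fold, or 3.12 ± 0.127 on the log2 scale (standard error, limma, adjusted p = 8.15e-11). With any 1 library left out the log2 fold change of Itpr2 lay between 3.00 and 3.22, and on the recovered reads edgeR and DESeq2 also called it.

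Itpr1 encodes the type 1 receptor, the main form in neurons. Its WT libraries had 193.2, 173.9 and 205.6 normalized counts and its GαqKO libraries 326.8, 254.4 and 224.6. The groups did not overlap, but the lowest GαqKO library came close to the highest WT library, and the spread within GαqKO (19.6%, coefficient of variation) was the widest among the 9 genes tested. The log2 fold change of Itpr1 was 0.48 (standard error 0.131, adjusted p = 0.00561 from limma), and it ran from 0.33 to 0.60 with single libraries left out.

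Itpr3 encodes the type 3 receptor. It had 605.6, 661.5 and 798.0 normalized counts in the WT libraries and 582.2, 573.5 and 577.0 in the GαqKO libraries. The 3 GαqKO libraries were nearly equal while the WT libraries were spread out, with WT replicate 3 the highest and WT replicate 1 close to the GαqKO range. The log2 fold change of Itpr3 was -0.24 (standard error 0.086, adjusted p = 0.0228 from limma). This call was lost in 4 of the 6 fits that leave out a library, and without WT replicate 3 the log2 fold change of Itpr3 was -0.13 (adjusted p = 0.0975 from limma). Of the exonic bases of Itpr3, 21.4% lie inside the spans of other genes, among them Uqcc2 on the opposite strand, a mitochondrial assembly factor gene that had 299.7, 300.2 and 386.8 normalized counts in WT and 457.3, 483.3 and 491.4 in GαqKO. The strand setting of the counting is not given in the sources used here, so reads of both genes cannot be told apart with certainty.

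To set the members of a family beside each other, normalized counts were divided by the kilobases of annotated exons. Per exonic kb, Itpr3 was the most abundant IP3 receptor RNA in every library. It stood at 57.4 ± 8.25 in WT and 48.1 ± 0.365 in GαqKO (normalized counts per exonic kb, SD, n = 3 each), Itpr1 at 10.4 ± 0.872 and 14.7 ± 2.87, and Itpr2 at 3.43 ± 0.529 and 30.0 ± 0.671. Itpr2 was thus the lowest of the 3 receptors in WT and lay between Itpr1 and Itpr3 in GαqKO. Its share of the summed level was 6.06, 4.27 and 4.26% in the WT libraries and 30.8, 32.5 and 33.8% in the GαqKO libraries. The share of Itpr3 was 77.7, 81.7 and 81.9% in WT and 50.6, 52.3 and 52.8% in GαqKO. The share of Itpr1, 14.7 ± 1.33% in WT and 15.7 ± 2.62% in GαqKO (SD, n = 3 each), overlapped between the groups, with an exact permutation p of 0.7. The direction of that last difference turned with the longest transcript as the length, with no length and without GαqKO replicate 1.

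The summed IP3 receptor level was 71.2 ± 8.73 normalized counts per exonic kb in WT and 92.8 ± 2.65 in GαqKO (SD, n = 3 each). All 3 GαqKO libraries were above the WT libraries, a difference in log2 level of 0.39. Sums and shares were compared by a two-sided exact permutation test over the 6 libraries, which with 3 against 3 cannot go below p = 0.1. The IP3 receptor sum and the shares of Itpr2 and Itpr3 each gave p = 0.1 by that exact test, the smallest it allows, and 0.133 after Benjamini-Hochberg adjustment over the 12 sums, shares and ratios compared.

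**Figure D3:**
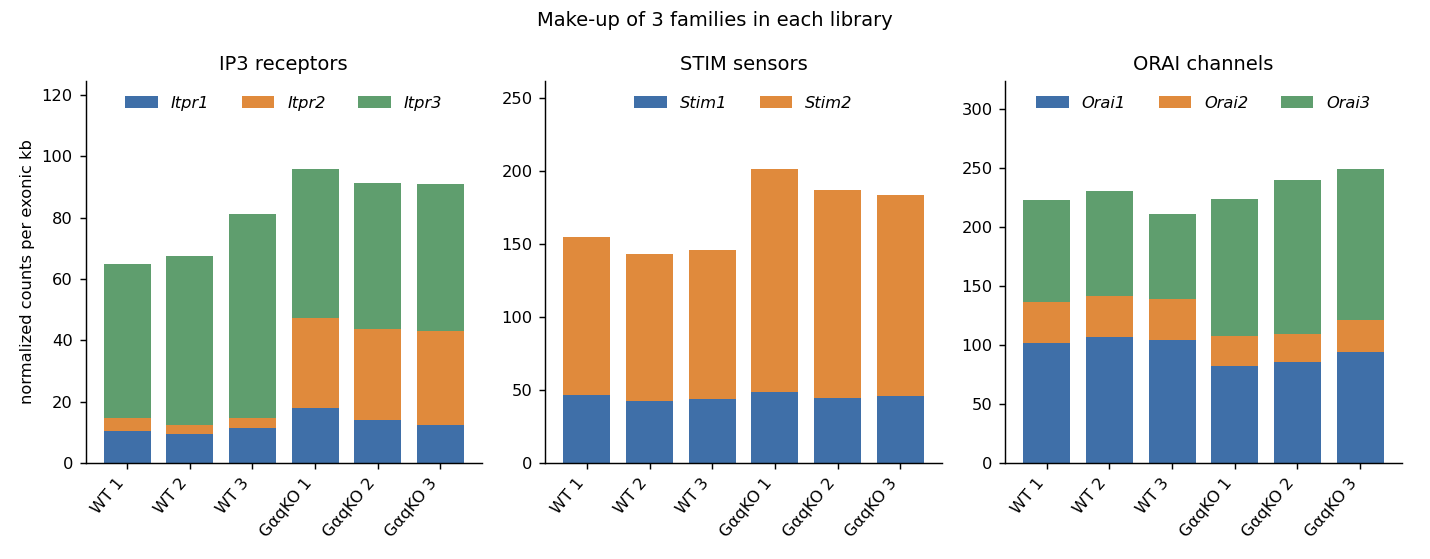
Summed levels of the IP3 receptor, STIM and ORAI families (vertical axes, normalized counts per exonic kb), stacked by gene, in each of the 3 WT and 3 GαqKO libraries. Itpr2 grew from about the thinnest layer to a share of 30.8 to 33.8% of the IP3 receptors, Stim2 took more of the STIM stack, and Orai3 passed Orai1.

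Atp2a2 encodes SERCA2, the pump that refills the store in most cells. It was the most abundant of the 10 RNAs per length, at 482.8 ± 11.2 normalized counts per exonic kb in WT and 455.1 ± 7.57 in GαqKO (SD, n = 3 each). The WT libraries had 5753, 5963 and 6011 normalized counts of Atp2a2 and the GαqKO libraries 5637, 5464 and 5609. The groups did not overlap, with a gap narrower than the range within either group, and Atp2a2 did not pass the threshold (log2 fold change -0.085, 95% interval -0.17 to -0.0003, adjusted p = 0.072 from limma). Without WT replicate 1 the adjusted p of Atp2a2 from limma was 0.0454. Of its exonic bases, 88.9% lie inside the spans of other genes, mostly of Anapc7 on the opposite strand, a subunit gene of the anaphase-promoting complex that had 986.0 ± 57.3 normalized counts in WT and 819.5 ± 36.1 in GαqKO (SD, n = 3 each).

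Atp2a3, which encodes SERCA3, a pump of blood and some epithelial cells, was close to the limit of detection. It had 5.2, 8.7 and 6.1 normalized counts in WT and 0.9, 3.5 and 16.1 in GαqKO, and 1 to 9 recovered reads in the 5 libraries where reads were recovered. The GαqKO libraries lay on both sides of the WT libraries, so a difference in Atp2a3 was not detectable at this depth. Its share of the summed SERCA level was below 1% in every library, with the highest at 0.653%. The summed SERCA level was 484.1 ± 11.4 normalized counts per exonic kb in WT and 456.4 ± 8.04 in GαqKO (SD, n = 3 each), a difference in log2 level of -0.085 with an exact permutation p of 0.1.

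Stim1 encodes the sensor that opens ORAI channels after strong store depletion. Its libraries had 482.4, 443.0 and 451.9 normalized counts in WT and 501.4, 459.0 and 475.3 in GαqKO. The groups overlapped, and the log2 fold change of Stim1 was 0.06 with a 95% interval of -0.09 to 0.21 (adjusted p = 0.466 from limma). A p above the threshold does not show that the groups were equal.

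Stim2 encodes the sensor that responds to small falls in store calcium. It had 561.8, 522.6 and 532.3 normalized counts in WT and 795.4, 742.3 and 716.0 in GαqKO. Every GαqKO library was above every WT library, with a spread under 6% of the mean in both groups. The log2 fold change of Stim2 was 0.48 (standard error 0.063, adjusted p = 1.56e-05 from limma), and it ran from 0.44 to 0.51 with single libraries left out. No exonic base of Stim1 or Stim2 lies inside the span of another gene in the table.

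Per exonic kb, Stim2 was above Stim1 in all 6 libraries. The log2 ratio of Stim1 to Stim2 was -1.22, -1.24 and -1.24 in WT and -1.67, -1.70 and -1.59 in GαqKO, a difference of -0.42 that was at the smallest exact permutation p, 0.1. The summed STIM level was 147.8 ± 5.91 normalized counts per exonic kb in WT and 190.6 ± 9.42 in GαqKO (SD, n = 3 each), a difference in log2 level of 0.37 with the same exact permutation p of 0.1. With the longest transcript in place of all exons Stim1 came close to Stim2 in WT, at 103.3 against 109.2 normalized counts per kb.

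Orai1 encodes the pore subunit that carries most store-operated current in many cells. It had 266.3, 279.8 and 273.8 normalized counts in WT and 215.0, 224.3 and 245.7 in GαqKO. The groups did not overlap, and GαqKO replicate 3 was the closest to WT. The log2 fold change of Orai1 was -0.26 (standard error 0.091, adjusted p = 0.022 from limma). That call was lost without WT replicate 2 (adjusted p = 0.0676 from limma), without GαqKO replicate 1 (0.0799), without GαqKO replicate 2 (0.0542) and with DESeq2 (0.121). Of the exonic bases of Orai1, 38.5% lie inside the span of Gm2479 on the opposite strand, which was listed at 0 in 5 libraries and near what 1 read is worth in the other.

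Orai2, the gene of a subunit that can join Orai1 in mixed channels, had 260.0, 257.4 and 259.6 normalized counts in WT and 189.7, 176.9 and 204.4 in GαqKO. The WT libraries were nearly equal, and all GαqKO libraries lay below them. The log2 fold change of Orai2 was -0.44 (standard error 0.096, adjusted p = 0.00102 from limma), and the call was kept under all 16 alternatives, with adjusted p from 0.000619 to 0.0133.

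Orai3, the gene of a subunit found in mammals alone, had 212.0, 218.6 and 175.1 normalized counts in WT and 284.5, 320.3 and 313.2 in GαqKO. Here every GαqKO library was above every WT library. The log2 fold change of Orai3 was 0.60 (standard error 0.105, adjusted p = 0.000188 from limma), the largest after Itpr2. No exonic base of Orai2 or Orai3 lies inside the span of another gene in the table.

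The leading ORAI RNA differed between the groups. Per exonic kb, Orai1 made up 45.6, 46.4 and 49.6% of the summed ORAI level in the WT libraries and 36.7, 35.7 and 37.7% in the GαqKO libraries. Orai3 made up 38.8, 38.7 and 33.9% in WT and 51.9, 54.5 and 51.3% in GαqKO. Orai2 made up 15.7 ± 0.77% and 10.7 ± 0.776% (SD, n = 3 each). Orai1 was thus the highest ORAI RNA per length in every WT library and Orai3 in every GαqKO library, and each of the 3 shares reached the smallest exact permutation p of 0.1. The summed ORAI level was 221.5 ± 9.97 normalized counts per exonic kb in WT and 237.7 ± 12.9 in GαqKO (SD, n = 3 each), the groups overlapped, and the exact permutation p was 0.2. Without a length correction that difference turned to -0.02 in log2 level.

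In order of their level per exonic kb, the WT libraries ran Atp2a2, Orai1, Stim2, Orai3, Itpr3, Stim1, Orai2, Itpr1, Itpr2 and Atp2a3. Orai1 and Stim2, at 104.4 and 103.7 normalized counts per exonic kb, were the only neighbours in this order whose libraries overlapped. The GαqKO libraries ran Atp2a2, Stim2, Orai3, Orai1, Itpr3, Stim1, Itpr2, Orai2, Itpr1 and Atp2a3. Itpr3 and Stim1, at 48.1 and 46.0, were the only overlapping neighbours there. Some places depended on the length used. With the longest transcript Stim1 took rank 4 instead of 6 in WT, ahead of Orai3 and Itpr3, and rank 5 instead of 6 in GαqKO, ahead of Itpr3. Orai2 then came just before Itpr2 in GαqKO, at 41.7 against 41.0 normalized counts per kb.

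The genes around Itpr2 were examined after its values had been seen. Of the 10 tested genes nearest to it, 5 on each side over 1.43 Mb, 9 were called higher and 0 lower, against 31.8% of all genes called higher. Their log2 fold changes ran from 0.13 to 1.17 with a median of 0.64, and the median over the 675 tested genes of chromosome 6 was 0.06. The largest of these was Bhlhe41, a transcriptional repressor gene of the circadian clock, at 1.17 (adjusted p = 2.45e-07 from limma). Rassf8, a gene of cell junctions, was at 0.76, Sspn, which encodes sarcospan of the dystrophin complex, at 0.94, and Ints13, an Integrator subunit gene, at 0.69. Each was well below the change of Itpr2 itself. The neighbours of Orai2 lay mostly the other way, with 8 of 10 called lower, against 34.1% of all genes called lower. Their median log2 fold change was -0.44, and the median over the 920 tested genes of chromosome 5 was 0.02. The neighbours of Itpr1, Stim2 and Orai3 were mixed, with 3, 4 and 3 called higher and 2 lower each. Around Itpr3 and Stim1, 6 of 10 neighbours each were called higher and 1 and 2 lower. Around Atp2a2 and Orai1, 1 each was called higher and 4 lower. The latter sets overlap on chromosome 5, where both include P2rx4, Camkk2 and Anapc5, and Camkk2 is the higher gene in both.

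**Figure D4:**
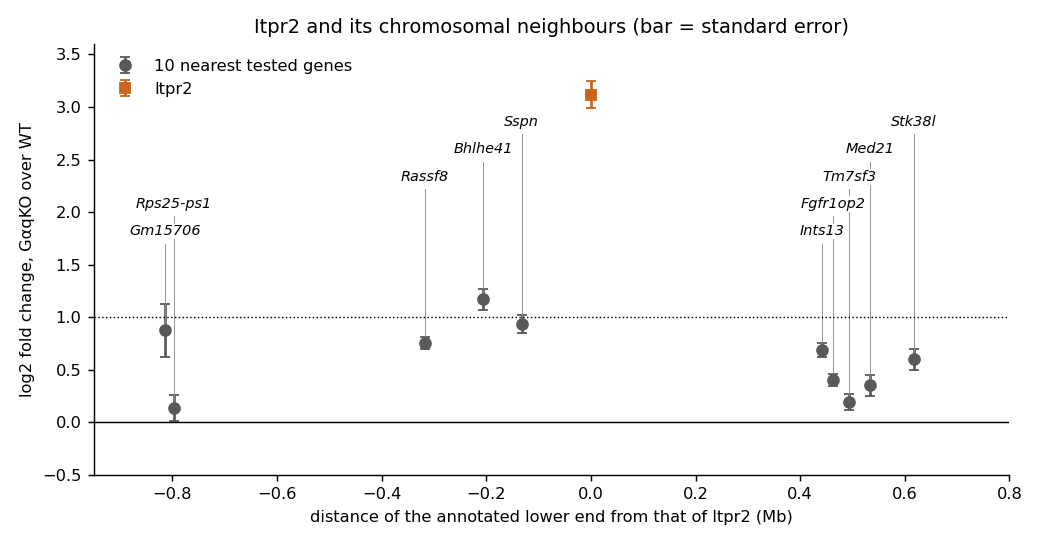
Log2 fold change of GαqKO over WT (vertical axis, limma, with standard errors) against distance from Itpr2 in Mb (horizontal axis) for Itpr2 and the 10 nearest tested genes; the dotted line is at 1. All 10 neighbours lay above 0, between 0.13 and 1.17, and Itpr2 at 3.12.

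The wider calcium pathway was described by 9 lists with 107 genes, of which 79 passed the filter. Of these 79, 29 were called higher and 28 lower, and 22 did not pass the threshold, beside 65.8% called among all genes tested. Past a log2 fold change of 1 as well there were 9 higher and 6 lower, beside 10.2% and 10.5% of all genes tested. Among the higher ones, Ryr1, Atp2c2, Cracr2a, Casq2 and Mcub passed the filter only with their GαqKO values. Among the lower ones, Slc8a1 passed it only with its WT values. Their place in these counts thus depended on the group where they were high. Each would drop out if 10 normalized counts were asked of every library. The counts of single lists below stand beside 31.8% of all genes called higher and 34.1% called lower.

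The list of other release channels and IP3 receptor regulators had 7 of 14 tested genes higher and 5 lower. Ryr1, a ryanodine receptor gene of the ER known from muscle, had 8.4, 9.7 and 12.2 normalized counts in WT and 94.8, 96.0 and 70.5 in GαqKO (log2 fold change 2.99, adjusted p = 1.72e-07 from limma). Ryr1 is also on the striated muscle list, where Myog and Actc1 were listed at 0 in all 6 libraries. Bcl2l1, whose product BCL-XL binds IP3 receptors, had 927.1 ± 40.1 normalized counts in WT and 2276 ± 28.6 in GαqKO (SD, n = 3 each), and it rose by 1.29 on the log2 scale. Pkd2, which encodes the ER cation channel polycystin-2, rose by 1.06 on the log2 scale and Pacs2, a gene of the contacts between ER and mitochondria, fell by 1.32. Grina, a gene of the TMBIM family of calcium leak proteins, rose by 0.68.

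IP3 metabolism had 1 of 8 tested genes higher and 3 lower. The largest fitted change there was that of Itpka, an IP3 kinase gene, at 19.3 ± 5.8 normalized counts in WT and 9.74 ± 2.8 in GαqKO (SD, n = 3 each), a fall of log2 -0.91 (adjusted p = 0.043 from limma). It was lost in 8 of 15 alternatives. Of the genes for SERCA1, SERCA regulators and Golgi pumps, 1 of 4 tested was higher and 1 lower. The SERCA inhibitor genes Pln and Sln were listed at 0 in all 6 libraries. A listed 0 need not mean that RNA was absent, because 71.5% of protein-coding genes wholly inside other gene spans were listed at 0. Tmem64, a SERCA2 regulator gene that is wholly overlapped by other genes, fell from 1277 ± 33.6 to 614.4 ± 24.3 normalized counts (SD, n = 3 each).

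Among regulators of store-operated entry, 3 of 8 tested genes were higher and 5 lower. Cracr2a, which encodes a calcium sensor that binds ORAI1 and STIM1, had 6.3, 1.0 and 8.1 normalized counts in WT and 110.8, 112.2 and 88.6 in GαqKO, a log2 fold change of 4.36 (adjusted p = 1.73e-06 from limma). For Cracr2a this value ran from 3.50 with a pseudocount of 5 to 4.78 over the alternatives and was 3.68 without WT replicate 2. Esyt1, which encodes a tether of ER and plasma membrane, went the other way with 438.6, 387.6 and 413.2 in WT and 61.0, 78.6 and 68.5 in GαqKO, a log2 fold change of -2.56 (adjusted p = 3.87e-10 from limma). Saraf, a gene of a brake on this entry, was at -0.20 and Asph, whose locus also makes junctate, at 0.51, both called. Only Trpc1 of the 7 TRPC cation channel genes passed the filter, and it was lower, at -0.42 (adjusted p = 0.0205 from limma). The Trpc1 call was lost without WT replicate 1 (adjusted p = 0.0623 from limma), without WT replicate 3 (0.0823), without GαqKO replicate 2 (0.0898) and with DESeq2 (0.0938).

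The list of calcium pumps of the plasma membrane and of calcium exchangers included 2 of the 6 genes that fell past a log2 fold change of 1 in the 9 lists. Atp2b4, which encodes the plasma membrane pump PMCA4, had 253.7, 257.4 and 295.2 normalized counts in WT and 49.8, 61.3 and 48.3 in GαqKO, a log2 fold change of -2.32 (adjusted p = 5.24e-09 from limma). Slc8a1, the gene of the sodium-calcium exchanger NCX1, had 113.8, 137.9 and 130.3 in WT and 1.9, 6.9 and 0.0 in GαqKO. The fitted log2 fold change of Slc8a1, -5.50, depends on the pseudocount because the GαqKO values are so low, and it ran from -6.24 to -4.15 over the alternatives. Together 3 of the 4 tested genes of this list were lower, and Slc24a5 was higher.

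Calcium binding proteins of the ER lumen had 2 of 13 tested genes higher and 6 lower. The lower ones were Calr, Hspa5, Hsp90b1, Pdia3, P4hb and Sdf4, with log2 fold changes between -0.44 for Hspa5, the gene of the chaperone BiP, and -0.15 for Calr, the gene of the calcium buffer calreticulin. Calu, the gene of calumenin, was higher at 0.34, and Casq2, a muscle calsequestrin gene, averaged 4.70 ± 1.5 normalized counts in WT and 19.2 ± 6.2 in GαqKO (SD, n = 3 each) and was also called higher, a call that was lost with DESeq2 (adjusted p = 0.0805). The mitochondrial list had 6 of 12 higher and 2 lower. Mcu, the pore gene of the mitochondrial uniporter, fell by 0.41 on the log2 scale, while Mcub, the gene of its inhibiting paralogue, had 13.6, 7.8 and 8.1 normalized counts in WT and 84.5, 74.0 and 90.6 in GαqKO, a log2 fold change of 2.99 (adjusted p = 3.19e-07 from limma). Slc8b1, which encodes the mitochondrial sodium-calcium exchanger, rose by 1.02.

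Downstream, calmodulin, calcineurin and NFAT genes had 8 of 15 tested higher and 2 lower. Both widely expressed catalytic subunits of calcineurin were higher, Ppp3ca at 0.92 and Ppp3cb at 0.75. Nfatc4, which encodes a transcription factor activated by calcineurin, had 162.9, 170.0 and 245.3 normalized counts in WT and 903.3, 934.2 and 982.9 in GαqKO, a log2 fold change of 2.30 (adjusted p = 1.51e-09 from limma). Rcan3, a calcineurin inhibitor gene, fell by 1.04. The values of Saraf, Asph, Calr, Hspa5, Calu, Mcu, Ppp3ca and Ppp3cb were picked as examples after they had been seen.

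**Figure D5:**
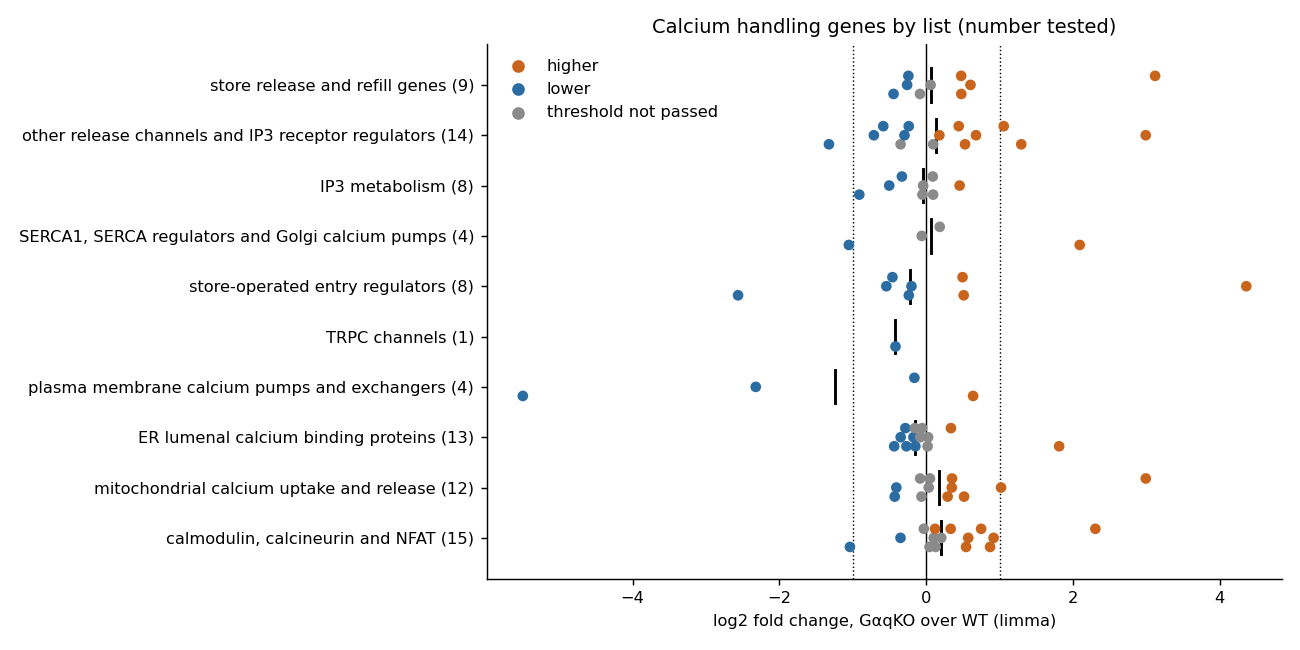
Log2 fold change of GαqKO over WT (horizontal axis, limma) for each tested gene of the store release and refill set and of the 9 pathway lists, with the number tested in brackets; the black mark is the median of a list and dotted lines stand at -1 and 1. Higher and lower calls occurred in every list but that of the TRPC channels, which had 1 tested gene.

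The pathway genes whose library pattern was closest to a member were found by the root mean square difference of log2 values over the 6 libraries, after each gene's WT mean was taken away. For Itpr2 these were Mcub, at 0.184, and Ryr1, at 0.288. For Orai3 they were Grina, at 0.0928, and Camk2d, a calcium/calmodulin kinase gene, at 0.123, and for Stim2 they were Asph, at 0.0465, and Camk2d, at 0.0722. The measure describes likeness over 2 groups of 3 libraries and says nothing of shared function or control.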

How the data were processed

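RNA of 3 WT and 3 GαqKO MEF libraries was poly-A selected and sequenced as 150 bp paired-end reads. Alignment by the authors was to GRCm39 (Rbowtie2), and featureCounts assigned the reads to GENCODE M32 genes. They deposited normalized counts, a signal in which each library's counts are divided by a size factor. Tool versions, strand setting and filters of that counting are not given in the sources used here. Symbols, exon lengths and gene spans came from GENCODE M39, which matched 56310 of 56953 identifiers, and promoter windows from RefSeq.

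Because the values are not raw counts, limma 3.58.1 (R 4.3.3, with a trend) was the test, as the design provided. In 5 libraries 100% of nonzero values were whole multiples of 1 read (tolerance 0.001), and on these edgeR 4.0.16, which called 8879 genes, and DESeq2 1.42.0 were run as alternatives. GαqKO replicate 3 was set aside before the recovery of reads, so these alternatives rest on GαqKO replicates 1 and 2 alone. Replicates differed by more than counting noise (chi-square per gene 2.44 to 5.52). On simulated data with 200 changed genes and a preset spread, limma recovered 96 of 100 changed by a log2 of 1. It recovered 100 of 100 changed by 2, with 7 false calls among 13991 genes tested. In the real data 65.8% of genes were called, and smaller changes were not simulated, so these rates need not hold for the real calls.

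The members were chosen by name, and members, lists and tests with earlier results of these data known. Named genes were the members, Gnaq and Gna11, pathway genes past both thresholds with a mean of at least 50, otherwise the largest change in a list, the nearest patterns and the 2 most abundant markers of each cell type, and exceptions are named where they occur. Alternatives varied the pseudocount (0.5 and 5), filter, scaling, trend, replicate block, exon length, count tool and each library.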

Additional observations from a re-analysis of the deposited data

How the results depend on the processing

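Of 144 refits of single members, 133 kept direction and side of the threshold, 10 lost the call (6 for Itpr3 and 4 for Orai1), 1 gained it (Atp2a2) and 0 reversed. The number of members called lower, 3, was 1 with DESeq2 on 5 libraries and ran from 1 to 4 with single libraries left out, where a low-count filter of 2 libraries was used. Itpr3 also lost its call without the trend (adjusted p = 0.101 from limma) and with DESeq2 (0.106). The shares and sums with no clear difference between the groups changed sign: the difference in the share of Itpr1 was -0.542 percentage points with the longest transcript, -0.406 with no length and from -0.383 to 2.19 with single libraries left out. The difference in summed ORAI log2 level was -0.0194 with no length, and that in the share of Atp2a3 ran from -0.166 to 0.141 percentage points with single libraries left out, being -0.0044 without WT replicate 1. The endothelial marker Pecam1, which was not called, had log2 fold changes of 0.044 without WT replicate 1, 0.059 without GαqKO replicate 3, 0.027 with edgeR and 0.017 with DESeq2, against -0.13 (from -0.407 to 0.059 with single libraries left out). Among the pathway genes 24 to 31 were called higher and 24 to 29 lower over the 16 alternatives. The causes of these changes were not tested.

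Deviations of same-numbered libraries from their group means had correlations of -0.045, -0.148 and -0.064. Pairs with different numbers had -0.075 to 0.125. With 3 libraries per group, such values cannot show whether same-numbered libraries were handled together. With the replicate number as a block, 4 members were higher and 3 lower, and 27 pathway genes were higher and 27 lower. Depth limits Atp2a3, and gene-level totals do not separate transcripts or overlapping genes: of the 1607 protein-coding genes wholly inside other spans, 71.5% were listed at 0, against 25.2% of 11516 with no overlap.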
